A study of Mus musculus with 30 samples.

Results

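The genes described are 10 of the 56941 Ensembl genes counted in mHypoA-2/12 cells: the Notch receptors Notch1, Notch2 and Notch3, the ligand Jag1, the effectors Hes1, Hey1 and Heyl, and the inhibitors of DNA binding Id1, Id2 and Id3. They were taken by gene symbol, and the set was chosen by the lower level of Hes1 in CBD-treated cells at 6 h, so that the values of Hes1 in that comparison are a description and carry no test. The question was whether the lower Hes1 level at 6 h was shared by other Notch targets or by the Id genes.

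mHypoA-2/12 is a single immortalized line derived from the hypothalamus of adult mice. Cells received cannabidiol (CBD) at 0.325, 0.75, 1.5 or 3 µM in DMSO, or the DMSO vehicle alone, for 6 h or 24 h. All groups shared the same line, medium and solvent. Each group had 3 libraries sequenced from the 3′ end of polyadenylated transcripts, which gave 30 libraries in 10 groups, labelled A1 to A30. Nothing in the labels says that the 3 libraries of a group came from separate cultures, so p-values measure only the spread between these libraries, which may be technical. Levels are given as CPM, the counts of a gene relative to all reads on genes of the library, scaled with TMM factors over the 30 libraries, and a fold change is the log2 ratio fitted by edgeR. Less RNA per cell and fewer cells with the RNA cannot be told apart in these bulk libraries.

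Notch receptors are cut after a ligand of the Delta or Jagged type on a neighbouring cell binds them, first by ADAM proteases and then by gamma-secretase, and the released intracellular domain joins RBPJ and Mastermind proteins on DNA. The Hes and Hey genes encode repressors of the basic helix-loop-helix class, and several of them are the classical targets of this complex. HES1 also represses its own gene through N-box sites, together with corepressors of the Groucho (TLE) family. ID proteins lack a DNA-binding region and hold E proteins such as TCF3, TCF4 and TCF12 away from E-box sites, and their genes are well-known targets of BMP signals carried by SMAD1 and SMAD5. In the developing brain, both groups of genes are known for keeping progenitor cells undifferentiated.

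Libraries held between 1839621 and 4420675 reads on genes. Of the 10 neuronal markers, Snap25, Syp and Rbfox3 had 4, 16 and 47 reads in all libraries together. The others averaged 49.3 (Tubb3), 40.7 (Nefm), 37.4 (Eno2), 23.3 (Map2), 16.5 (Nefl), 15.4 (Stmn2) and 2.01 CPM (Syt1). Together the 10 summed to between 150.1 and 228 CPM per library. The 8 mesenchymal markers (Col1a1, Vim, Acta2 and others) summed to between 8398 and 10907 CPM, so the cells are called here by the name of the line rather than as neurons. Of the 5 microglial markers Tmem119 was abundant (243 CPM on average). Cx3cr1, Csf1r and Ptprc averaged 14.6, 11.4 and 0.744 CPM, while Aif1 had 2 reads in all. The oligodendrocyte markers summed to at most 4.14 CPM, the endothelial markers to at most 3.80 CPM, the astrocyte markers to between 16.8 and 50.7 CPM, and the progenitor markers, mostly Nes, to between 91.0 and 209 CPM. No gene of these 7 marker lists was called by edgeR over the 4 doses at 6 h or at 24 h. At an unadjusted edgeR p under 0.05, 3 of 8 mesenchymal and 2 of 2 astrocyte markers tested passed at 6 h. So did 1 of 6 neuronal, 1 of 3 microglial and 1 of 3 progenitor markers, beside 1234 of all 12012 genes. At 24 h, 2 of 8 mesenchymal markers passed, beside 815 of all 12118 genes. The part of other cell types in the results was not tested.

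Of the 10 genes, 7 passed the filter on low counts at 6 h, at 24 h and over all 30 libraries: Hes1, Notch2, Notch3, Jag1, Id1, Id2 and Id3. Reads over all libraries numbered 47914 for Id3, 32425 for Id2, 10054 for Id1, 5243 for Hes1, 4255 for Notch2, 1344 for Jag1 and 781 for Notch3. Hey1 had 46 reads in all and none in 11 libraries, Notch1 had 25 reads and none in 18 libraries, and Heyl had 5 reads and none in 28 libraries. All 10 are protein-coding genes in GENCODE M21. In that annotation, on GRCm38, Hes1 lies on the plus strand of chromosome 16 between 30064384 and 30067796, and Id3 on the plus strand of chromosome 4 between 136143497 and 136145755, whereas the reads had been mapped to GRCm39.

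RefSeq promoters on GRCm38.p6 were matched for 6 of the 10 genes (Notch1, Notch2, Notch3, Jag1, Id2 and Id3). Each has 250 bases before and 50 bases after the start that the promoter entry gives. That start is not always the GENCODE M21 start, which is 136143497 for Id3 and 25097140 for Id2 on the minus strand. The windows of Notch1, Id2 and Id3 lie inside the GENCODE genes, after those starts. Sequences are shown for the 3 of them on which results turn: Id3, which differed among doses at 24 h, its relative Id2, which did not pass that test, and Notch3, which differed between times in vehicle cells. Lower case is the promoter in the direction of the gene, 5′ to 3′, and capitals mark matches to 4 motifs searched on both strands: the RBPJ core TGGGAA, the N-box CACNAG, the E-box CANNTG and the BMP SMAD element GGCGCC.
Id3 (chr4:136143572-136143871, plus strand): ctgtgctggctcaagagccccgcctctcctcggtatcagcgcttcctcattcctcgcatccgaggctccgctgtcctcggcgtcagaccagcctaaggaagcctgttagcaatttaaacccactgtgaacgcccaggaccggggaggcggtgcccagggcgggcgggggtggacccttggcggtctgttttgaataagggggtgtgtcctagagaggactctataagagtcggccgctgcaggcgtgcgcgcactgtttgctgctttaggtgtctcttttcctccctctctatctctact
Id2 (chr12:25096043-25096342, minus strand): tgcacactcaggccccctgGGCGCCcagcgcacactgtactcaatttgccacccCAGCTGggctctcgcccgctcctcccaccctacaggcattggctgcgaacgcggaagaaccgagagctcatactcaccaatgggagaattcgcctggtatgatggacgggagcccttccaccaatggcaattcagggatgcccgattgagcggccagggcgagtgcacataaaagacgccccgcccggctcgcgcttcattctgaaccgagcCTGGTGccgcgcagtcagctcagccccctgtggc
Notch3 (chr17:32166841-32167140, minus strand): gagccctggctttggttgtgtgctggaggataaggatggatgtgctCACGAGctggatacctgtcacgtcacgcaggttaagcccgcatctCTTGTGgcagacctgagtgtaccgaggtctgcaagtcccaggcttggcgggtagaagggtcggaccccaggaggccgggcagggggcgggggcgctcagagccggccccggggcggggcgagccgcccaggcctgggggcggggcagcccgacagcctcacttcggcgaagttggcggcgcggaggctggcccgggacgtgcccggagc

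None of the 4 motifs occurred in the Id3 window. Counted from the start in the promoter entry, Id2 held 1 BMP SMAD element at base −231, 1 E-box at base −196 and 1 N-box from base 17 to base 22. Notch3 held 2 N-boxes, at bases −204 and −159. The RBPJ core was in 0 of the 6 windows, the N-box in 4, the E-box in 2 and the BMP SMAD element in 1. Over all 32851 promoters of the same length these shares were 25.6%, 42.5%, 72.3% and 11.9%. The E-box and the N-box cannot match the same 6 bases. A match describes the letters of the window and was not tied to binding of any factor.

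Hes1, the repressor that Notch signals induce, was lower in all 4 CBD-treated groups at 6 h than in vehicle cells. Vehicle libraries A1, A2 and A3 held 106, 96.6 and 189 CPM. At 0.325 µM the 3 libraries were at 73.6, 23.3 and 57.7 CPM, and at 0.75 µM at 55.3, 53.0 and 57.2 CPM. At 1.5 µM they were at 68.4, 56.0 and 63.3 CPM, and at 3 µM at 71.0, 61.1 and 64.4 CPM. All 12 CBD-treated libraries therefore lay below all 3 vehicle libraries, and the vehicle library A3 and the 0.325 µM library A14 (23.3 CPM) stood apart from the rest of their groups.

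The group means were 131 ± 50.9 CPM (SD, n = 3) in vehicle cells and 51.5 ± 25.7, 55.2 ± 2.10, 62.6 ± 6.28 and 65.5 ± 5.05 CPM (SD, n = 3 each) from the lowest to the highest dose. The log2 differences from vehicle were −1.37 (standard error 0.26), −1.26 (0.26), −1.08 (0.26) and −1.01 (0.26) in the same order, and −1.18 (0.19) over the 4 doses. Every dose was compared with the same 3 vehicle libraries. The difference over the 4 doses was −0.79 without A3, the smallest as each library was left out in turn, and −1.35 without A2, the largest. A3 also had the most reads on genes of the vehicle libraries at 6 h (3574833, against 1839621 in A1 and 1919498 in A2) and 17.9% of reads outside genes, against 21.4% and 20.8%. The part of these properties in the level of Hes1 was not tested.

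**Figure D1:**
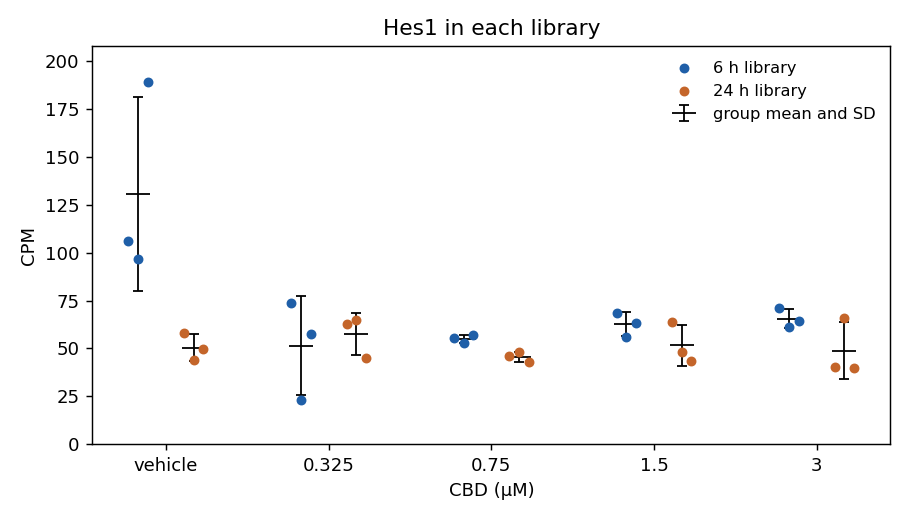
Hes1 level in CPM (vertical axis) in each library by CBD dose in µM (horizontal axis), with points for libraries (blue at 6 h, orange at 24 h) and black bars for the mean and SD of the 3 libraries of a group. The 3 vehicle libraries at 6 h lie between 96.6 and 189 CPM, and all other libraries lie between 23.3 and 73.6 CPM.

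At an FDR below 0.1, Hes1 was the 1 member called at 0.325 µM, where 0.2% of the 12012 genes tested at 6 h were called, and at 0.75 µM, where 0.0749% were. No member was called at 1.5 µM (0.0999% of genes) or at 3 µM (0.05% of genes), and 1 of 7 was called over the 4 doses (0.749% of genes). Hes1 was also the 1 of the 7 genes in which treated and vehicle libraries did not overlap at 6 h, which held for 1.46% of the genes tested. These counts rest on the gene that chose the set, and nothing was read from them.

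Among the doses themselves, no difference in Hes1 was detected at 6 h (edgeR FDR = 0.9998 across all genes). None of the 7 genes was called among doses at 6 h, with 0% of all genes called by edgeR and 0 by DESeq2. At an unadjusted p under 0.05, 1 of the 7 genes (Notch3) and 452 of the 12012 passed. The Hes1 means of 51.5 CPM at the lowest dose and 65.5 CPM at the highest differed by less than the SD of 25.7 CPM at the lowest dose.

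At 24 h, no difference in Hes1 between CBD-treated and vehicle cells exceeded the spread of the libraries. Vehicle libraries were at 58.0, 43.8 and 49.5 CPM, and the 12 CBD-treated libraries ranged from 39.9 to 65.9 CPM with a median of 47.1 CPM. The CBD-treated libraries lay on both sides of all 3 vehicle libraries. Over the 4 doses the log2 fold change was −0.00 (standard error 0.15, 95% interval −0.31 to 0.30, edgeR FDR = 0.999), and for single doses it lay between −0.16 at 0.75 µM and 0.18 at 0.325 µM. No difference among doses was detected at 24 h either (edgeR FDR = 0.696).

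In vehicle cells, Hes1 at 24 h differed from 6 h by −1.39 on the log2 scale (standard error 0.24), with 131 CPM at 6 h and 50.4 CPM at 24 h, and by −0.99 without A3. Since the 6 h vehicle libraries also served in the comparison that chose the gene, this value is given without a test. Ordered by mean level, the 6 h vehicle group stood first, and the other 9 groups followed from 65.5 CPM (3 µM at 6 h) down to 45.7 CPM (0.75 µM at 24 h). Neighbouring groups among those 9 overlapped in the levels of their libraries. The groups treated with CBD for 6 h, with means from 51.5 to 65.5 CPM, stood beside vehicle cells of 24 h at 50.4 CPM.

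The other 2 effectors of the set, Hey1 and Heyl, were too rare to follow. Hey1, a repressor that can pair with HES1, had 3, 4 and 0 reads in the vehicle libraries at 6 h and 16 reads in the 12 CBD-treated libraries. At 24 h it had 1 read in each vehicle library and 20 in the CBD-treated ones. All 6 libraries of the 1.5 µM dose had 0 reads of Hey1, while the 3 µM libraries at 24 h had 3, 6 and 2. Heyl had 4 reads in A27 (0.325 µM, 24 h), 1 read in A17 (3 µM, 24 h) and 0 elsewhere. Differences in these 2 genes were not detectable at this depth.

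Further genes of the Hes and Hey families came, with Nrarp, from a list of 7 genes outside the set (Hes2, Hes3, Hes5, Hes6, Hes7, Hey2 and Nrarp). Hes6 was the most abundant at 21.8 CPM on average, beside 3.00 CPM for Hey2 and 2.45 CPM for Hes7. Little could therefore be read from this list on Notch targets other than Hes1. Hes5 and Nrarp, which respond to Notch in many tissues, had 0 reads in all libraries, which allows up to 0.0356 CPM for counting error (3 reads over all libraries). At 6 h, 3 of the 7 genes were tested over the 4 doses and 0 were called by edgeR, with 0 at an unadjusted p under 0.05. Their median log2 fold change was −0.08, against −0.02 over all genes. Hes6, which counteracts HES1, was at 16.3 ± 1.92 CPM (SD, n = 3) in vehicle cells and 16.5 ± 3.82 CPM (SD, n = 12) in CBD-treated cells at 6 h. In vehicle cells Hes6 rose from 6 h to 24 h (log2 fold change 0.80, standard error 0.27, edgeR FDR = 0.0324). Hes7, with only 197 reads in all libraries, was lower at 24 h (−2.44, standard error 0.996, FDR = 0.0782), at 3.57 and 0.576 CPM. Its vehicle libraries held 2.67 to 5.28 CPM at 6 h and 0 to 1.40 CPM at 24 h, so that this value rests on few reads.

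Notch2 had the most reads of the receptors. At 6 h its vehicle libraries held 53.9, 51.8 and 56.4 CPM, and the CBD-treated libraries ranged from 35.9 to 56.3 CPM with a median of 46.9 CPM. The lowest group was 0.325 µM at 6 h, at 41.0 ± 4.54 CPM (SD, n = 3), and vehicle and CBD-treated libraries overlapped. At that dose the log2 fold change was −0.41 (standard error 0.17, edgeR FDR = 0.502). Over the 4 doses it was −0.22 (standard error 0.13, 95% interval −0.50 to 0.06, edgeR FDR = 0.625) at 6 h and 0.02 (0.13, −0.25 to 0.28, FDR = 0.995) at 24 h.

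Notch3, the receptor of mural cells in many tissues, differed between the 2 times in vehicle cells. Vehicle libraries held 5.005, 5.87 and 3.33 CPM at 6 h and 14.7, 10.3 and 9.43 CPM at 24 h. Notch3 rose in vehicle cells from 6 h to 24 h by 1.34 on the log2 scale (standard error 0.40, edgeR FDR = 0.0158), in a comparison in which 26.7% of 12790 genes were called. Without A3 the difference was 1.098 (FDR = 0.107). CBD-treated libraries ranged from 1.50 to 11.6 CPM at 6 h and from 5.26 to 16.7 CPM at 24 h, around the vehicle values. Over the 4 doses the log2 fold change was 0.36 (standard error 0.40, FDR = 0.829) at 6 h and 0.01 (0.25, FDR = 0.999) at 24 h. With 4 to 33 reads per library at 6 h, the interval of −0.46 to 1.18 was the widest of the 7 genes.

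Notch1, the receptor best known in neural progenitors, had 1 read in the 3 vehicle libraries at 6 h and 4 reads in the 12 CBD-treated ones. At 24 h the vehicle libraries had 5, 1 and 4 reads. The 0.325 µM libraries had 3, 3 and 0, the 0.75 µM libraries 2, 2 and 0, and the 6 libraries of 1.5 and 3 µM had 0. These counts lay under the filter, no test was made, and no difference was read from them.

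Jag1, the ligand of the set, was at 8.90, 11.2 and 20.8 CPM in the vehicle libraries at 6 h, and CBD-treated libraries ranged from 6.71 to 12.4 CPM. The highest value came from A3, and the other 2 vehicle libraries lay within the CBD-treated range. The log2 fold change over the 4 doses was −0.46 (standard error 0.26, 95% interval −0.99 to 0.08, FDR = 0.579) and turned to 0.04 without A3. At 24 h vehicle libraries were at 16.8, 16.6 and 19.2 CPM and CBD-treated libraries at 5.66 to 29.8 CPM, with a log2 fold change of 0.16 (0.23, FDR = 0.952). The lowest library at 24 h was A16 (3 µM), and the other 2 libraries of that dose held 19.3 and 19.7 CPM.

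Id1 was at 113, 149.9 and 186 CPM in the vehicle libraries at 6 h, and CBD-treated libraries ranged from 70.6 to 149 CPM with a median of 125 CPM. As with Hes1, A3 was the highest of the vehicle libraries and A14 the lowest of all. The log2 fold change over the 4 doses was −0.30 (standard error 0.15, 95% interval −0.61 to 0.01, edgeR FDR = 0.514), and −0.10 without A3. At 0.325 µM alone it was −0.48 (FDR = 0.462), and −0.24 without A14. With the percentage of reads outside genes as a covariate, Id1 at 0.325 µM was called (−0.57, FDR = 0.0763). At 24 h it was 0.15 (0.11, FDR = 0.890), with vehicle libraries at 110.4, 106 and 84.5 CPM and CBD-treated libraries between 85.5 and 129 CPM. In vehicle cells Id1 fell by 0.59 on the log2 scale from 6 h to 24 h (standard error 0.17, FDR = 0.0144). Without A3 this change was −0.37 (FDR = 0.179), and without A30 it was −0.46 (FDR = 0.109).

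Id2, whose product binds E proteins as those of Id1 and Id3 do, had the smallest standard error of the 7 genes at both times. Its vehicle libraries held 372, 381 and 360.4 CPM at 6 h, and CBD-treated libraries ranged from 306 to 400.0 CPM. The log2 fold change was −0.07 (standard error 0.10, 95% interval −0.27 to 0.14, FDR = 0.884) at 6 h and −0.15 (0.09, FDR = 0.824) at 24 h. At 24 h the vehicle libraries were at 445, 460.5 and 416 CPM and the CBD-treated ones between 325 and 429 CPM, with the 3 µM library A16 lowest. The change of Id2 in vehicle cells from 6 h to 24 h was 0.25 (standard error 0.12, FDR = 0.124).

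Id3 had a wide spread within groups at 6 h. Vehicle libraries held 408, 370.3 and 835 CPM, and CBD-treated libraries ranged from 234 to 618 CPM with a median of 541 CPM. A3 was again the highest library and A14 the lowest, and the vehicle range enclosed all but 1 of the CBD-treated libraries. The log2 fold change over the 4 doses was −0.07 (standard error 0.21, 95% interval −0.51 to 0.36, FDR = 0.948) with all libraries and 0.40 (FDR = 0.396) without A3. In vehicle cells Id3 differed between 24 h and 6 h by −0.06 (FDR = 0.903), and by 0.43 (FDR = 0.256) without A3.

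**Figure D2:**
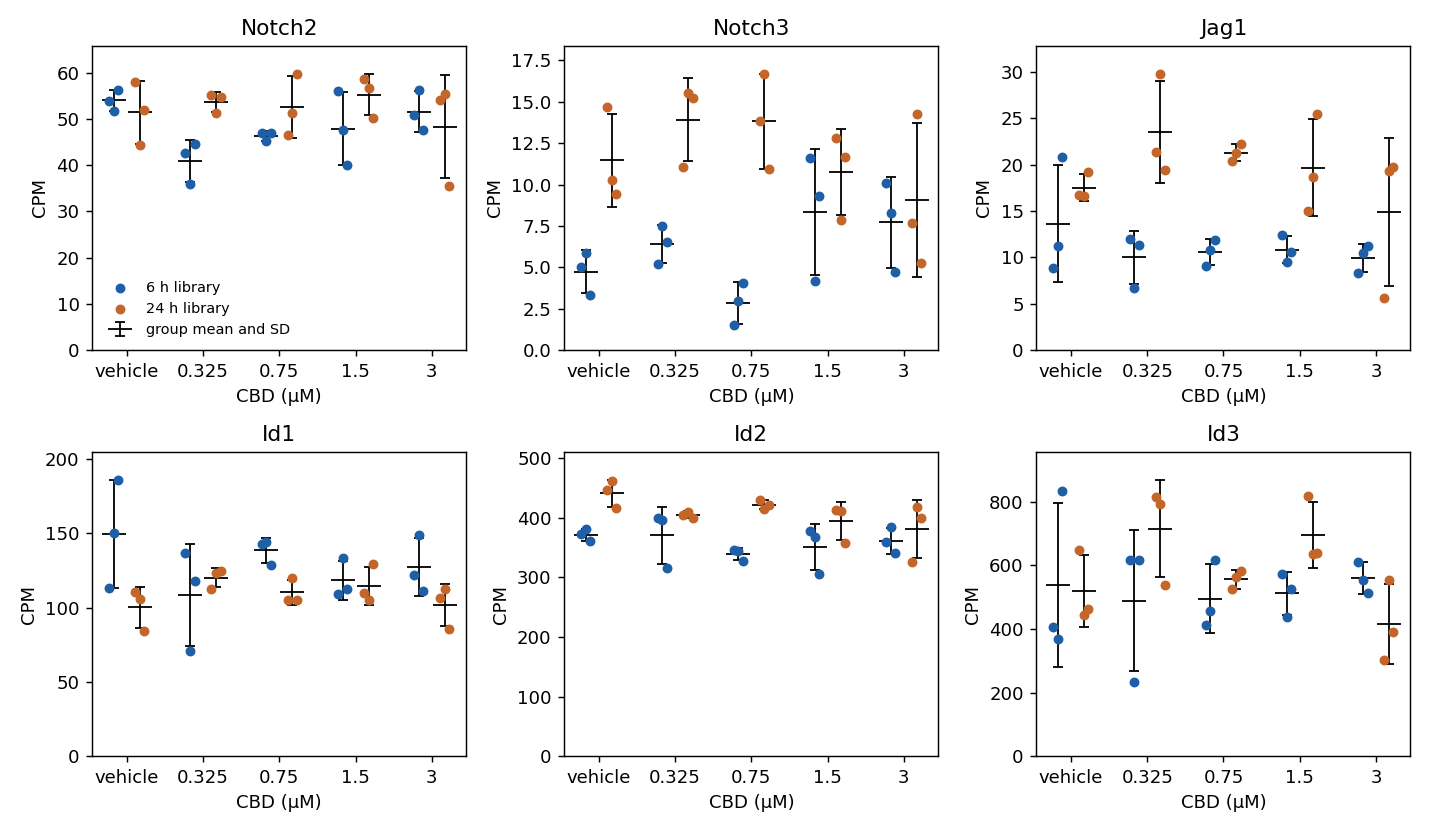
Levels in CPM (vertical axes) of Notch2, Notch3, Jag1, Id1, Id2 and Id3 by CBD dose in µM (horizontal axes), with points for libraries (blue at 6 h, orange at 24 h) and black bars for the mean and SD of 3 libraries. In none of the 6 panels do all CBD-treated libraries of a time lie on one side of its vehicle libraries, and Id3 at 24 h is lowest at 3 µM (mean 416 CPM).

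None of the other 6 genes passed the test over the 4 doses at 6 h. Their log2 fold changes over the 4 doses lay between −0.46 (Jag1) and 0.36 (Notch3), with an edgeR FDR between 0.514 and 0.948 across all genes. The lower bounds of their 95% intervals ranged from −0.99 (Jag1) to −0.27 (Id2), beside −1.18 for Hes1 with an interval of −1.57 to −0.79. The values of Hes1 come from the comparison that chose the set, so the other intervals were not judged against them. Without A3 the values were −0.79 for Hes1, −0.18 for Notch2, 0.12 for Notch3 and 0.04 for Jag1. They were −0.10 for Id1, −0.09 for Id2 and 0.40 for Id3. At 0.325 µM alone, with all libraries, Notch2 and Id1 passed at an unadjusted edgeR p under 0.05. With Hes1 that made 3 of the 7 members, beside 1057 of all 12012 genes. At each higher dose Hes1 alone passed. Because Hes1 was chosen for its difference, no test of Hes1 against the other genes was made.

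At 24 h, 0 of the 7 genes were called by edgeR at 0.325 µM (0.066% of the 12118 genes tested), 0.75 µM (0.0825%), 1.5 µM (0.0413%) or 3 µM (0.00825%), or over the 4 doses together (0.107%). At an unadjusted p under 0.05, Id3 passed at 0.325 µM and at 1.5 µM and no member passed over the 4 doses. DESeq2 also called 0 members in these 5 comparisons. In no member were treated and vehicle libraries free of overlap at 24 h, which held for 0.611% of genes. The 95% intervals over the 4 doses lay within −0.51 and 0.63 on the log2 scale for all 7 genes.

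**Figure D3:**
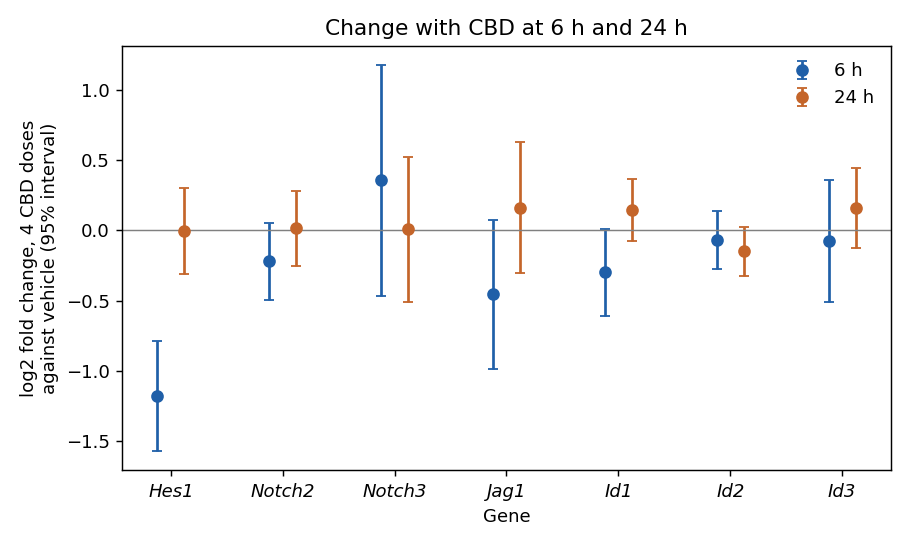
Log2 fold change of the 4 CBD doses together against vehicle (vertical axis) with its 95% interval for the 7 genes tested (horizontal axis), at 6 h (blue) and 24 h (orange). Hes1 at 6 h lies at −1.18, below the other 13 values, which lie between −0.46 and 0.36.

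The difference between 24 h and 6 h in the change with CBD was 1.18 (standard error 0.27) for Hes1, in a comparison in which 0.235% of all genes were called. This value contains the 6 h comparison that chose the gene and is a description. For the other 6 genes it lay between −0.36 (Notch3) and 0.64 (Jag1), with an edgeR FDR between 0.716 and 0.966. For Id1 it was 0.45 (standard error 0.19, FDR = 0.716), and 0.25 without A3.

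Id3 at 24 h differed among the doses of CBD. Vehicle libraries were at 648, 445 and 464 CPM. Libraries of 0.325 µM held 815, 794 and 539.9 CPM, those of 0.75 µM 524, 563 and 581 CPM, those of 1.5 µM 817, 635 and 639.8 CPM, and those of 3 µM 304, 554 and 389 CPM. All but 1 library of 3 µM lay below all 9 libraries of the lower doses, and A17, at 554 CPM, lay within their range. Among the 4 doses Id3 was the 1 of 7 genes called (edgeR FDR = 0.0592), where 1.93% of all genes were.

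Set against the 3 lower doses together, Id3 at 3 µM fell by 0.64 on the log2 scale (standard error 0.15, edgeR FDR = 0.0144), from 657 ± 120.4 CPM (SD, n = 9) to 416 ± 127 CPM (SD, n = 3). It was the 1 of 7 genes called, and 10.5% of all genes were called in this comparison. Earlier results of these data pointed to this grouping of doses, so its FDR values are not those of a comparison fixed in advance. Without A16 the change was −0.46 (FDR = 0.163), and without A17 it was −0.90 (FDR = 0.000214). Without A17, Notch3 (−0.96, FDR = 0.0551) and Jag1 (−0.77, FDR = 0.0883) were called as well, against −0.47 (FDR = 0.342) and −0.53 (FDR = 0.224) with all libraries. The call among the 4 doses was lost when any one of A16, A18, A19, A22, A23, A25 or A26 was left out, with FDR values from 0.102 to 0.276, and with the covariate described next (FDR = 0.581).

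The libraries of 3 µM at 24 h also had more reads outside genes, 21.4% ± 0.487 (SD, n = 3), than the lower doses, whose means were 19.4%, 19.4% and 19.7%. Vehicle libraries at 24 h had 21.4% ± 0.714 (SD, n = 3). With this share as a covariate, the change of Id3 at 3 µM against the lower doses was −0.75 with an edgeR FDR of 0.291, and the number of genes called fell from 1275 to 30. Since 3 µM and the share of reads outside genes moved together, they cannot be told apart for Id3. Against vehicle, Id3 at 3 µM was at −0.32 (standard error 0.17, FDR = 0.591), at 0.45 (0.17, FDR = 0.481) for 0.325 µM and at 0.42 (0.17, FDR = 0.6002) for 1.5 µM.

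Within groups, Hes1 and Id3 varied together from library to library. Each library's deviation in log2 CPM from the mean of its own group was compared between genes in 9 pairs, so that effects of dose and time were removed. Hes1 and Id3 had a Pearson r of 0.93 and a Spearman rho of 0.89 over the 30 libraries (permutation within groups, p = 4e-05 and 0.00013, adjusted over the 9 pairs 0.00036 and 0.00117). Without A14 and A13, the 2 libraries farthest from the median of Hes1, r was 0.91, and r was 0.94 in the 15 libraries of 6 h and 0.90 in the 15 of 24 h. The remaining pairs had adjusted permutation p-values of 0.148 or more, and among them Hes1 and Id1 had an r of 0.62, or 0.32 without A14 and A13. Hes1 and Id2 had an r of 0.01, and Id1 and Id3 an r of 0.56.

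**Figure D4:**
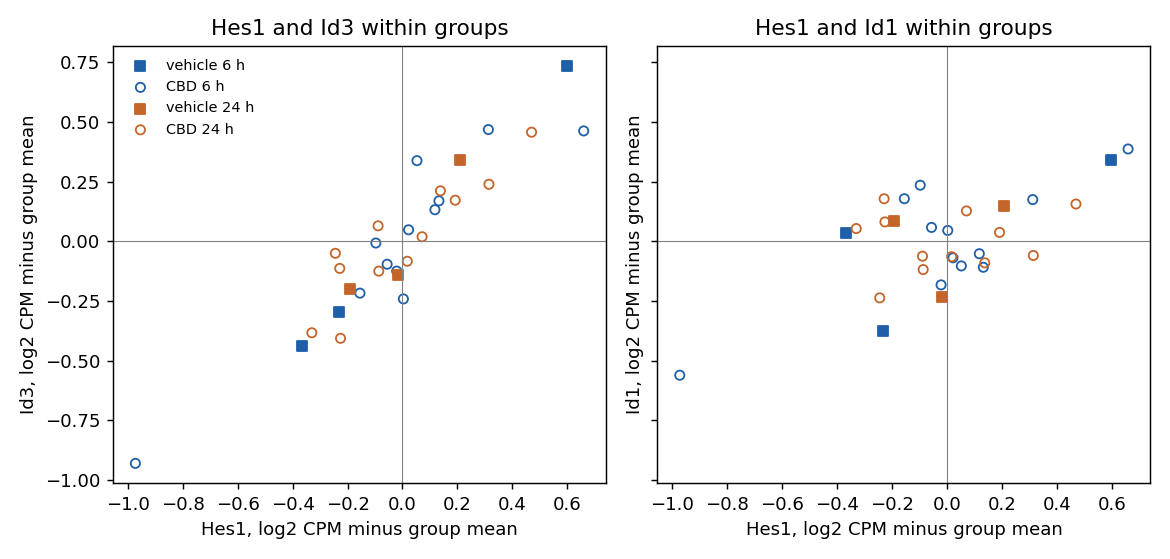
Deviation of each of the 30 libraries from its group mean in log2 CPM, for Hes1 (horizontal axes) against Id3 (left) and Id1 (right), with squares for vehicle, circles for CBD, blue for 6 h and orange for 24 h. Hes1 and Id3 rise together over the whole range (r = 0.93), while for Hes1 and Id1 (r = 0.62) the lowest library, A14, lies apart from the rest.

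The covariation was not limited to these 2 genes. Of 12789 genes compared with Hes1 in this way, 97 had an r above 0.8 and 1217 an r above 0.5. Id3 ranked second, after Cox7c (r = 0.94), a subunit of cytochrome c oxidase that was named after its value was seen. Deviations of Hes1 and Id3 had r values of −0.51 and −0.55 with those of the share of reads outside genes (permutation p = 0.137 and 0.0813, each 0.183 adjusted over 4 relations), with rho of −0.27 and −0.36 (permutation p = 0.272 and 0.162, each 0.272 adjusted). They had r values of 0.25 and 0.39 with those of the log2 read total (permutation p = 0.330 and 0.105, adjusted 0.330 and 0.183), with rho of 0.29 and 0.38 (permutation p = 0.206 and 0.0883, each 0.272 adjusted). Without the 2 farthest libraries these 4 values of r were −0.25, −0.35, 0.16 and 0.28. With both measures removed from both genes, r between Hes1 and Id3 was 0.92.

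By level over all 30 libraries, group differences included, the 5 genes most like Hes1 in log2 CPM were Snrnp70 (r = 0.84), Snx3 (0.80), M6pr (0.80), Rragc (0.78) and Dnajb9 (0.78). Each had its highest mean in vehicle cells at 6 h, as Hes1 did, for example 153 CPM for Snrnp70 against 122 CPM in CBD-treated cells at 6 h. These are a description over libraries that share groups. By this measure Id1 had rank 57 (r = 0.69), Id3 rank 787 (0.47) and Notch2 rank 1425 (0.39), and Id2 (−0.19) and Notch3 (−0.27) had negative values.

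Other genes of the pathways were read from 8 lists with 89 genes in all: ligands and receptors, receptor processing, trafficking, the nuclear complex, the Hes and Hey relatives with Nrarp, Groucho corepressors, ID partners and the BMP pathway. None was called over the 4 doses at 6 h (73 tested, 3 at an unadjusted p under 0.05) or at 24 h (69 tested, 5 at an unadjusted p under 0.05) by edgeR. Over all genes, 1234 of 12012 at 6 h and 815 of 12118 at 24 h had an unadjusted p under 0.05. The median log2 fold changes of the lists at 6 h lay between −0.12 for ligands and receptors and 0.21 for ID partners, against −0.02 over all genes.

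Rbpj, the DNA-binding partner of the Notch intracellular domain, was at 186 ± 6.26 CPM (SD, n = 3) in vehicle cells and 167 ± 20.4 CPM (SD, n = 12) in CBD-treated cells at 6 h. The transmembrane protease Adam10 stood at 71.2 ± 12.2 and 64.6 ± 8.51 CPM in the same groups. Among the ligands and receptors outside the set, all 7 averaged under 7 CPM, with Dner highest at 6.88 CPM. Dner, a Notch ligand of neurons, was at 14.7 ± 7.01 CPM (SD, n = 3) in vehicle cells and 7.95 ± 2.72 CPM (SD, n = 12) in CBD-treated cells at 6 h, a log2 fold change of −0.86 (standard error 0.33) with an unadjusted edgeR p of 0.015 and an FDR of 0.330 across all genes. At 24 h this was −0.19 (standard error 0.47, FDR = 0.980). In the BMP pathway Bmp4 was the ligand with the most reads, at 72.3 ± 26.8 CPM (SD, n = 3) in vehicle cells and 93.4 ± 46.2 CPM (SD, n = 12) in CBD-treated cells at 6 h, and the transducer Smad5, named like Rbpj for its role after its values were seen, was at 98.8 ± 8.40 and 92.4 ± 10.99 CPM.

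In 3 µM against the lower doses at 24 h, 4 of the 69 listed genes tested were called, 3 higher and 1 lower. Over all genes 1275 of 12118 (10.5%) were called, and nothing about the pathways was read from these counts. Furin, the protease that cuts Notch receptors on their way to the surface, rose by 0.59 (standard error 0.12, edgeR FDR = 0.00608), from 114 ± 16.3 CPM (SD, n = 9) to 169 ± 32.2 CPM (SD, n = 3). Fst, the secreted antagonist of activins and some BMPs, rose by 0.71 (standard error 0.19, FDR = 0.0249), from 94.1 ± 16.5 CPM (SD, n = 9) to 151 ± 72.1 CPM (SD, n = 3). Its 3 µM libraries ranged from 93.6 to 232 CPM and overlapped those of the lower doses (69.6 to 122 CPM). Tcf12, an E protein bound by ID proteins, fell by 0.37 (standard error 0.11, FDR = 0.0393). Each direction has to be read beside the higher share of reads outside genes at 3 µM given above, whose part in these genes was not tested. Among the cell type markers tested, 1 of 6 neuronal, 1 of 3 microglial and 1 of 3 progenitor markers were called higher in this comparison. Of the 8 mesenchymal markers 1 was called lower. The part of these markers in the changes of Id3 and of the listed genes was not tested.

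Between the 2 times, more of these genes passed the test, as did more of all genes. Apart from Hes1, whose values are a description, 2 of the other 6 members were called in vehicle cells between 24 h and 6 h, Notch3 and Id1, and 0 of the 6 without A3 (edgeR FDR = 0.107 and 0.179 for these 2), against the background of 26.7% given above. Of the 74 listed genes tested, 27 were called, 16 higher and 11 lower at 24 h, beside 3411 of all 12790 genes. Nothing about the pathways was read from these counts. Of the 6 Groucho corepressors, Tle6 (1.94), Tle2 (1.36), Tle3 (0.52) and Tle5 (0.35) rose and Tle1 (−1.06) fell, on the log2 scale. In the BMP pathway 2 genes rose and 6 fell: the ligand Bmp4 rose from 72.3 to 237 CPM (log2 fold change 1.73, standard error 0.31, FDR = 0.000161), while its antagonist Fst fell from 219.9 to 111 CPM (−0.99, standard error 0.22, FDR = 0.00124) and Bmp2 was at −1.71 (standard error 0.60, FDR = 0.0383). The E proteins Tcf4 (0.47) and Tcf3 (0.35) rose. Of the cell type markers, 5 of 8 mesenchymal markers were called between the times (4 higher and 1 lower at 24 h), as were 3 of 7 neuronal markers tested (1 higher and 2 lower), 2 astrocyte, 2 microglial and 1 progenitor marker, and their part in these changes was not tested. The same vehicle libraries of 6 h and 24 h serve in the CBD comparisons, so these values stand beside those comparisons and are not independent of them.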

How the data were processed

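Total RNA of 30 mHypoA-2/12 libraries was measured by 3′ mRNA sequencing. The deposited counts are raw reads per Ensembl gene, which the authors made by trimming with Flexbar, mapping to GRCm39 with STAR 2.7.5c and counting with HTSeq 1.99.2, with quality checked in FastQC 0.11.9. The strand setting is not given in the sources used here. Of the reads counted on genes, outside genes or as ambiguous, 19.97% lay outside genes and 4.92% were ambiguous. Both kinds stayed out of library sizes. The shares of reads outside genes given for libraries and used as a covariate have the same base. The members, the lists and the comparison of 3 µM with the lower doses were chosen with earlier results of these data known. Groups came from the sample labels. Counts were tested in R 4.3.3 with edgeR 4.0.16 (filterByExpr, TMM, quasi-likelihood F-test, Benjamini-Hochberg FDR below 0.1), with the 15 libraries of a time in one fit, and all 30 for time effects. The fits were tested on simulated counts. Alternatives were DESeq2 1.42.0, RLE factors, other count filters, a covariate for the percentage of reads lying outside genes, fits of 2 groups and leaving out each library. Correlations used log2 CPM (prior count 2) and 100000 permutations within groups. Named genes were the 10 members, list genes past the FDR, up to 3 abundant genes of a list, and the 5 genes most correlated with Hes1. One listed gene is not reported here. Floors for 0 counts cover counting error only.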

Additional observations from a re-analysis of the deposited data

Results flagged for a closer look

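The change of Hes1 with CBD at 24 h minus that at 6 h was 1.18 on the log2 scale (standard error 0.27) by the interaction term of the fit over 30 libraries. It ranged from 0.79 without A3 to 1.36 without A2 as each library was left out, and was 0.92 after the percentage of reads lying outside genes entered the fit. The 6 h comparison that chose Hes1 is part of this value, so it is a description. The vehicle libraries held 131 ± 50.9 CPM at 6 h and 50.4 ± 7.17 CPM at 24 h (SD, n = 3 each).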

How the results depend on the processing

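Of 2358 recomputed values of the members, 2299 kept their direction and their side of the threshold, 37 lost a call, 22 gained one and 0 reversed a call. With DESeq2, and with no filter on low counts, 1 member was called for 1.5 µM and 1 for 3 µM at 6 h, and with no filter 1 for 0.325 µM at 24 h. With at least 10 counts in every library, 0 were called at 0.75 µM at 6 h. With a covariate for the percentage of reads lying outside genes, 6 h calls numbered 2 for 0.325 µM (Hes1 and Id1), 1 for 1.5 µM and 1 for 3 µM, and there were 0 among doses at 24 h, 0 in 3 µM against the lower doses and 0 in the difference between times. In fits of only the 2 groups compared, 6 h calls numbered 0 for 0.325 µM and 0 for 0.75 µM. As each library was left out, between 0 and 1 members were called at each dose at 6 h, at 3 µM at 24 h, among doses at 24 h and in the difference between times, between 0 and 3 in 3 µM against the lower doses, and between 1 and 4 in vehicle cells between times. The cause of these shifts was not tested. Genes called over the 4 doses at 6 h numbered 90, with 304 without A3, 51 without A2, 132 by DESeq2 and 329 with the covariate. In 3 µM against the lower doses they numbered 1275, or 30 with the covariate. Over all alternatives, genes called from the lowest to the highest dose against vehicle numbered 24 (0 to 322), 9 (1 to 173), 12 (0 to 154) and 6 (0 to 135) at 6 h (lowest and highest count in parentheses). At 24 h they numbered 8 (0 to 79), 10 (0 to 102), 5 (0 to 44) and 1 (1 to 288), with 13 (0 to 47) over the 4 doses. Among doses they numbered 0 (0 to 15) at 6 h and 234 (1 to 1085) at 24 h, and for the difference between times 30 (2 to 87). No paired analysis was possible because the replicate numbers only follow the order of the samples within a group and tie no library to one of another group. With 3 libraries a group and under 100 reads per library for Notch3, changes inside its interval could not be detected.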
